A study of Homo sapiens with 16 samples.

Results

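The genes described here are the 36 aminoacyl-tRNA synthetases found by symbol among the 23230 gene symbols of the count tables. They were picked by gene family, through a list of symbols with no threshold on a measured value, although earlier results of these data were known: 20 genes encode the cytosolic enzymes, and 16 genes, whose symbols end in 2, encode the mitochondrial enzymes. All 36 had enough reads to enter every test. The lowest count of any member in any library was 119, for PARS2.

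The measurement was sequencing of polyadenylated RNA from 8 established human blood cell lines, each given either of a pair of peptides. There was 1 library per line and peptide (16 libraries). Per the labels, the peptide Y518R binds DPY30, a shared subunit of the SET1 and MLL histone methyltransferase complexes, and the peptide 3R does not bind it and is the control. MOLM13 and THP1 are labelled as MLL-AF9 leukemia, RS4-11 as MLL-AF4 leukemia and KOPN8 as MLL-ENL leukemia, and these are the 4 MLL-fusion lines. The 4 other lines are K562 (BCR-ABL leukemia), RAJI (Burkitt's lymphoma), JURKAT (Myc dependent T cell leukemia) and P493-6 (a Burkitt's lymphoma model). Every library came from cells in Advanced RPMI with 2.5% fetal bovine serum, so this medium is shared by both peptides. The sources used here state neither the peptide dose nor the time on peptide, nor whether MYC was on in P493-6, a B cell line with a conditional MYC transgene. Each class of lines mixes lineages. With 3R the myeloid marker LYZ reached 567 CPM (library-scaled counts, TMM) in MOLM13 and 771 CPM in THP1 and was at most 40.3 CPM elsewhere, whereas CD79A, of B cells, reached 407 to 561 CPM in RS4-11, KOPN8, RAJI and P493-6. HOXA9, a gene that MLL fusions are known to keep on, was at 13.3 to 49.1 CPM in the 4 MLL-fusion lines and at or below 0.036 CPM in the others with 3R.

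An aminoacyl-tRNA synthetase joins an amino acid to the tRNAs that decode it, and so supplies the ribosome with charged tRNA. The cytosol and the mitochondrion mostly use separate enzymes, although GARS and KARS each make an enzyme for both compartments and EPRS charges both glutamate and proline. When amino acids run short, uncharged tRNA activates the kinase GCN2, translation of the transcription factor ATF4 goes up, and ATF4 raises transcription of amino acid transporters, of amino acid biosynthetic enzymes and of many cytosolic synthetases. The mitochondrial synthetases are not known as a group for this response. The cytosolic genes were therefore read as 12 genes listed as ATF4-responsive (AARS, CARS, EPRS, GARS, IARS, LARS, MARS, NARS, SARS, TARS, WARS and YARS) and 8 others (DARS, FARSA, FARSB, HARS, KARS, QARS, RARS and VARS).

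ATF4 binds DNA with a partner of the C/EBP family at a composite element, which was searched for as TGATGNAA on both strands of the promoter windows of RefSeq (GRCh38.p14, 250 bases before to 50 bases after the transcript start). Windows were found for 30 of the 36 members. They were not found for DARS, LARS, VARS, YARS, AARS2 and VARS2. The letters were present in 6 of 10 windows of the ATF4-responsive genes, in 0 of 6 windows of the other cytosolic genes and in 1 of 14 windows of the mitochondrial genes (YARS2). Among all windows of the same length the share was 3.62% of 35114, and among those of protein-coding genes 2.69% of 22197. A match describes the letters and is not evidence of binding, and the absence of a match says only that these letters are not in that window. The 6 matching stretches are printed 5′ to 3′ on the strand of the gene, with 50 bases on each side where the stretch allows and at most 30 bases past the start, because the ratios of these genes lay on the same side in THP1, and on the opposite side in RS4-11, as given below. Capitals mark the element, which reads TTGCATCA where it lies on the opposite strand.
AARS, chr16:70289636-70289743, minus strand: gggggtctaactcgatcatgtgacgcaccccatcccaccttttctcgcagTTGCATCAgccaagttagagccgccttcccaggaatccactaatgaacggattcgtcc
CARS, chr11:3057394-3057475, minus strand: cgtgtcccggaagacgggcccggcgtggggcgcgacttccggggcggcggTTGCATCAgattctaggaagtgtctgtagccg
IARS, chr9:92293668-92293760, minus strand: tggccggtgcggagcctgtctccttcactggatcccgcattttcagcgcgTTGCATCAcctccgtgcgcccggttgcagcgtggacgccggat
MARS, chr12:57488014-57488097, plus strand: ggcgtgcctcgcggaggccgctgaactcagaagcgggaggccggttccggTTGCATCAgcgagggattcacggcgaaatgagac
NARS, chr18:57621807-57621872, minus strand: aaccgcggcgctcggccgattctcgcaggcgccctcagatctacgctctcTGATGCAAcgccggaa
TARS, chr5:33440917-33440994, plus strand: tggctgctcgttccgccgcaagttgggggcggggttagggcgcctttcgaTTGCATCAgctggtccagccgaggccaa

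All 6 matches read TGATGCAA on their own strand. In CARS, IARS, MARS and TARS the match began within 13 bases of the transcript start, in NARS 14 bases past the start, and in AARS it began 187 bases before it. The letters were also in the windows of the ATF4 target genes ASNS and CHAC1, 68 and 209 bases before the start, and not in those of TRIB3 and DDIT3, the other 2 such genes searched. GARS and WARS, which are listed as ATF4-responsive, held no match. Their stretches from 100 bases before to 30 bases past the start are shown for contrast, since they were among the 4 members at least 1.5-fold lower in THP1.
GARS, chr7:30594635-30594764, plus strand: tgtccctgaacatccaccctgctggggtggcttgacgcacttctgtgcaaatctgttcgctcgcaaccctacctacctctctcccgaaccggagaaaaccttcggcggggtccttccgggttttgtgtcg
WARS, chr14:100376298-100376427, minus strand: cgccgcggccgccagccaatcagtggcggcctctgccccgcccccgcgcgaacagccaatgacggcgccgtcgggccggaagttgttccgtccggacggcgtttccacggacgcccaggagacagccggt

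A second motif, CACGTG, the E-box that MYC and its relatives bind, was in 1 of 10 windows of the ATF4-responsive genes, 0 of 6 of the other cytosolic genes and 3 of 14 of the mitochondrial genes, against 8.34% of the windows of protein-coding genes. Matches of both motifs overlapped in 8 of all 35114 windows and in none of the members' windows. HARS and HARS2 lie back to back on opposite strands, and their windows share 184 bases.

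The libraries held 19354300 to 43003124 gene counts. Reads that fell in no gene made up 17.7% to 26.9% of reads in 15 libraries and 44.7% in the RAJI library with 3R, which therefore stands apart. THP1, MOLM13 and RAJI differed most between their peptides: among genes at 10 CPM or more, 5.23% were at least 1.5-fold higher and 3.5% at least 1.5-fold lower with Y518R in THP1, 4.0% and 3.3% were so in MOLM13, and 0.64% and 4.28% in RAJI. Exons of 15 of the 36 members overlap those of another gene in GENCODE v29 annotation. In SARS2 the overlap covers 83.1% of exon bases (MRPS12 on the opposite strand and AC011455.2 on the same strand), so SARS2 values are uncertain. The overlap was at most 14.2% in the others.

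Transcripts of most cytosolic synthetases were far more abundant than those of their mitochondrial counterparts. Measured per length (CPM per kilobase of merged exons, median over the 8 libraries with 3R), the cytosolic genes ran from 22.6 for HARS to 148 for GARS with a median of 93.8, and the mitochondrial genes from 3.62 for PARS2, the prolyl enzyme, to 66.5 for IARS2, the isoleucyl enzyme, with a median of 15.6. In all 15 pairs of enzymes for the same amino acid the cytosolic gene had the higher median level per length. Single lines could differ: in THP1 with 3R, HARS was at 19.69 and HARS2 at 19.73. The ratio was lowest for HARS to HARS2 (1.26), CARS to CARS2 (1.32) and IARS to IARS2 (1.49), and highest for EPRS to PARS2 (32.1). The median ratio was 7.54.

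As a share of all gene counts, the 20 cytosolic genes together took 0.454% to 0.976% of a library. With 3R the share was 0.914% in MOLM13, 0.586% in THP1, 0.576% in RS4-11, 0.454% in KOPN8, 0.722% in K562, 0.552% in RAJI, 0.465% in JURKAT and 0.955% in P493-6. With Y518R it was 0.916%, 0.456%, 0.639%, 0.461%, 0.759%, 0.607%, 0.482% and 0.976% in the same order. THP1 was thus the line in which the share was lower with Y518R, and the share was higher in the other 7. The 16 mitochondrial genes took 0.0720% to 0.115%.

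**Figure D1:**
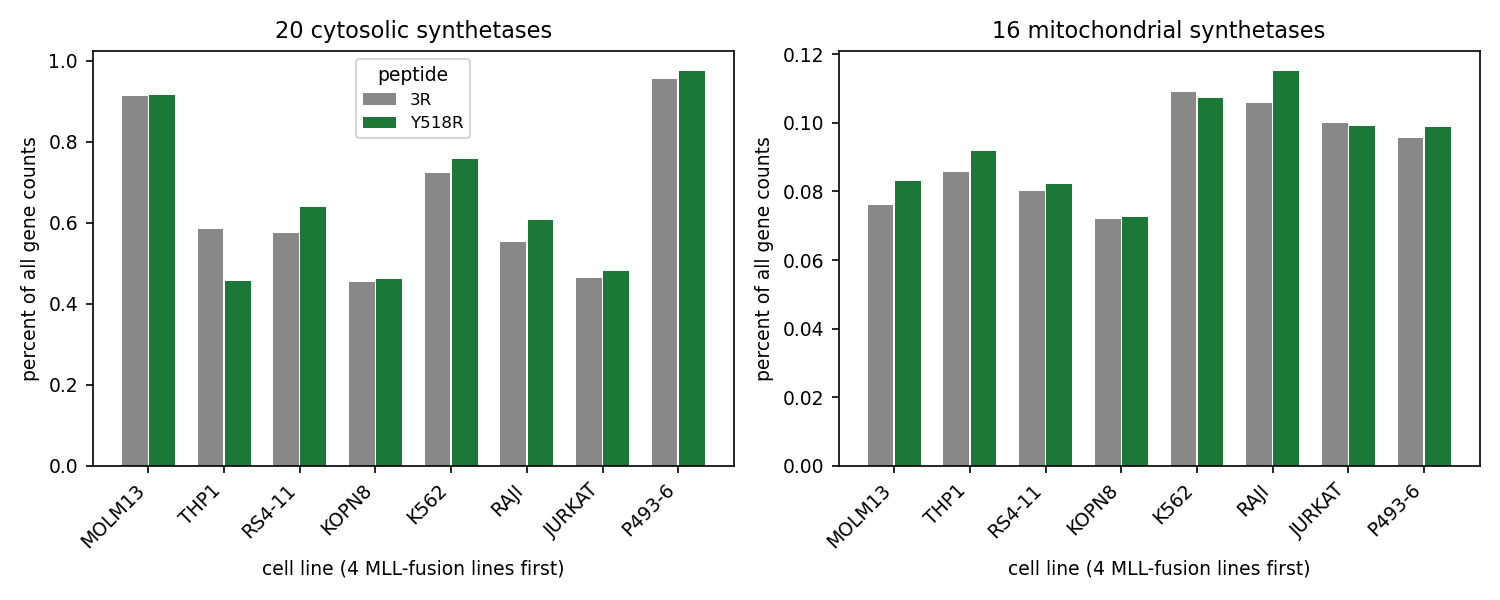
Percent of all gene counts taken by the 20 cytosolic synthetases (left) and the 16 mitochondrial synthetases (right) in each library; bars are single libraries with 3R (grey) or Y518R (green), and the axes start at 0. The cytosolic share was 0.586% with 3R and 0.456% with Y518R in THP1, and the mitochondrial share was lower in all 4 MLL-fusion lines than in the other 4 with either peptide.

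Levels of single synthetases differed widely between lines, while the largest fold between peptides for any member at 10 CPM or more in any line was 1.76. Over the 8 libraries with 3R, the highest level was 1.39 times the lowest for HARS and 17.8 times for WARS, with a median of 3.06 over the cytosolic genes. WARS, the tryptophanyl enzyme, was at 1355 CPM in MOLM13, 846 CPM in P493-6, 473 CPM in RS4-11, 382 CPM in RAJI, 269 CPM in THP1, 238 CPM in K562, 97.5 CPM in KOPN8 and 76.3 CPM in JURKAT. P493-6 had the highest level for 9 of the 20 cytosolic genes and JURKAT the lowest for 10. Among the mitochondrial genes VARS2, the valyl enzyme, spread most, 20.9 times, from 5.21 CPM in THP1 to 109 CPM in JURKAT.

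**Figure D2:**
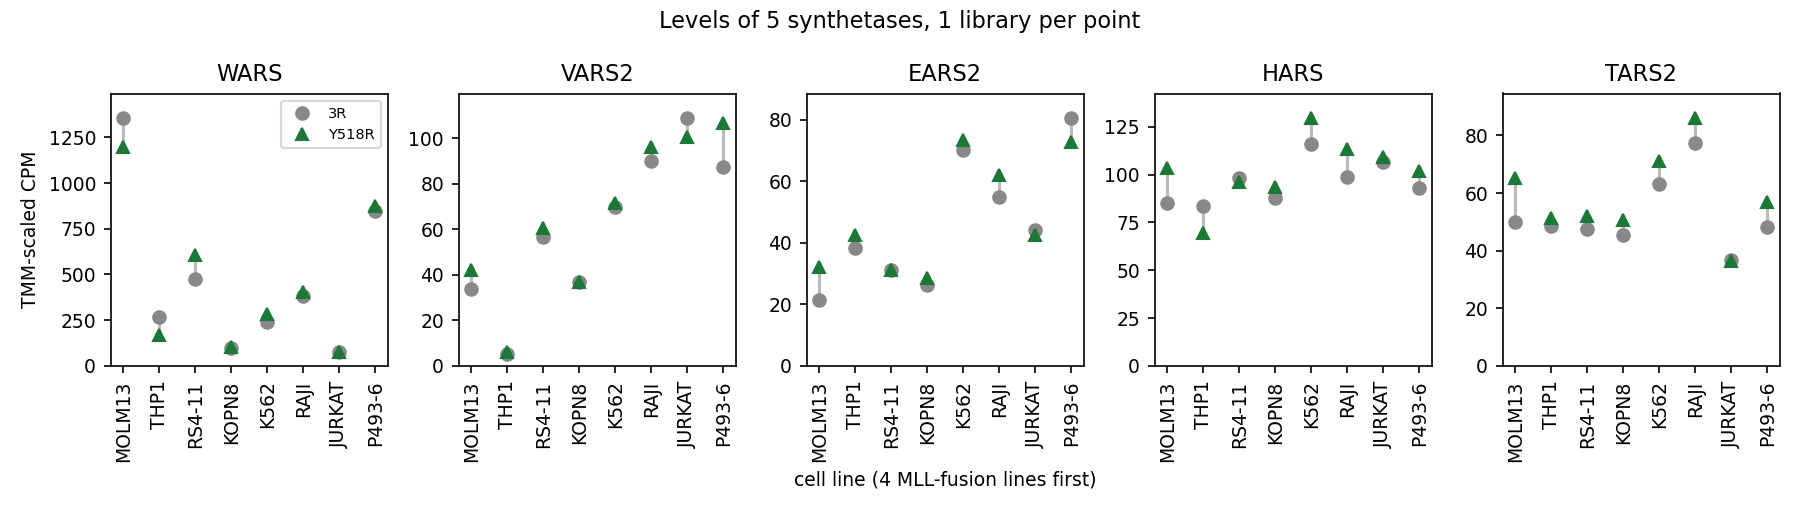
Level of 5 synthetases (TMM-scaled CPM, linear axis from 0) in the 8 lines, 1 library per point, with 3R (grey circles) and Y518R (green triangles) joined by a line. WARS ran from 76.3 to 1355 CPM with 3R, HARS from 83.4 to 116 CPM, and lines differed more in WARS than in HARS.

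With the control peptide, mitochondrial synthetases took a smaller summed share of counts in the MLL-fusion lines than in the other lines, while no single gene passed edgeR's test. Their summed share was 0.0720% to 0.0858% in the 4 MLL-fusion lines and 0.0955% to 0.109% in the other 4, and these ranges did not overlap. With Y518R the ranges were 0.0724% to 0.0919% and 0.0987% to 0.115%, again without overlap. No background from sums of other gene sets was computed, and with 3R only 3 of the 16 genes were without overlap on their own. The fitted differences had a median of −0.36 on the log2 scale over the 16 mitochondrial genes, with 12 below 0. The median was −0.14 over the 20 cytosolic genes and −0.013 over the 13107 genes tested. Of the 8 other cytosolic genes, DARS was at 0.042, HARS at −0.23, QARS at −0.27 and VARS at −0.34. KARS was at −0.49, RARS at −0.50, FARSA at −0.54 and FARSB at −0.62. The 12 ATF4-responsive genes ran from −0.72 (IARS) to 0.56 (AARS). Differences below 0 were therefore not particular to the mitochondrial genes. Lineage, fusion and library cannot be told apart here, because each line is 1 library and the classes hold different lineages.

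EARS2, the mitochondrial glutamyl enzyme, was at 21.4 CPM in MOLM13, 38.2 CPM in THP1, 31.0 CPM in RS4-11 and 26.2 CPM in KOPN8 with 3R. It was at 70.0 CPM in K562, 54.9 CPM in RAJI, 44.0 CPM in JURKAT and 80.4 CPM in P493-6. All 4 MLL-fusion lines lay below all 4 others, with means of 29.2 ± 7.16 and 62.3 ± 16.1 CPM (SD, n = 4 each). The fitted difference was −1.10 ± 0.31 (SE), with an edgeR adjusted p of 0.384. MARS2, the mitochondrial methionyl enzyme, was at 23.7 to 32.1 CPM in the MLL-fusion lines and at 32.6 to 127 CPM in the others, also without overlap (−1.21 ± 0.45, edgeR adjusted p = 0.442), although K562 was only just above the highest MLL-fusion line, and the difference was −0.68 without P493-6, the highest line. VARS2 was at 5.21 to 56.5 CPM against 69.6 to 109 CPM. KARS, the lysyl enzyme, was at 253 to 289 CPM against 323 to 449 CPM.

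These 4 genes, EARS2, MARS2, VARS2 and KARS, were the members in which all MLL-fusion lines lay below all others, and no member lay above. Among 13241 genes, 3.3% lay below and 4.15% lay above in this way. By edgeR's quasi-likelihood test, 0 of 36 members passed an adjusted p of 0.05, beside 7 of 13107 genes (0.0534%, of which 0.0458% higher and 0.00763% lower). Without adjustment 6 members had a p under 0.05, all lower in the MLL-fusion lines: EARS2, MARS2, FARSB, LARS2, KARS and VARS2, beside 10.1% of all genes (5.4% higher and 4.69% lower). With any 1 line left out, 2 to 5 members did, and no share of all genes was computed for those fits. FARSB, a subunit of the cytosolic phenylalanyl enzyme, had a difference of −0.62 ± 0.24, and LARS2, the mitochondrial leucyl enzyme, −0.91 ± 0.36. DESeq2 called EARS2 (−1.11, adjusted p = 0.0290). That tool called 307 genes higher and 170 lower, against 6 and 1 by edgeR. In the libraries with Y518R edgeR again called 0 members, with 4 at an unadjusted p under 0.05, also without a share of all genes.

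Most other genes of mitochondrial translation had differences on the same side. The 17 mitochondrial translation factors had a median of −0.35, with 14 below 0 and 3 above. TUFM, the mitochondrial elongation factor that carries charged tRNA to the ribosome, was at −0.69 ± 0.28 (edgeR adjusted p = 0.478). The largest differences of the list were on the other side, 1.42 ± 0.55 for QRSL1 and 1.02 ± 0.36 for MTIF3 (edgeR adjusted p = 0.455 and 0.424). None of the 17 passed the test.

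Across all 8 lines, no synthetase differed between Y518R and 3R beyond the spread of the peptide change between lines. edgeR's quasi-likelihood test called 0 of 36 members and 0 of 13043 genes (0.0%), with 1 member, higher, at an unadjusted p under 0.05, beside 3.02% of all genes (1.36% higher and 1.66% lower). DESeq2 and limma-voom called 0 members as well, with 2 at an unadjusted p under 0.05 in each. The median change was 0.023 over the cytosolic genes, 13 of 20 above 0, and 0.035 over the mitochondrial genes, 12 of 16 above 0, beside −0.0037 over all genes tested. With each line left out in turn the cytosolic median ran from 0.00039 (without RS4-11) to 0.094 (without THP1) and the mitochondrial median from 0.00027 (without MOLM13) to 0.062 (without JURKAT). Lines serve as replicates, and each has 1 library per peptide. These tests therefore set the peptide change against its spread between lines, part of which may be technical. The test was tried on data simulated on these libraries, with the same change planted in every line. It called 79% of genes changed 1.5-fold and 94% of genes changed 2-fold. With the change planted in the MLL-fusion lines only, it called 67.3% and 82.7%. Those runs held 98 to 100 changed genes of each size, which eases the adjusted cut, whereas the real fit called 0 genes. Changes below 1.5-fold were not simulated, and the largest fitted change of a member was 1.17-fold (PARS2). The simulation therefore does not say whether changes of that size would be called. In RNA from whole cultures, fewer cells with a transcript and less of it per cell cannot be told apart.

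TARS2, the mitochondrial threonyl enzyme, was the member with the lowest p. It was at 49.9, 48.5, 47.4, 45.3, 63.3, 77.5, 36.9 and 48.0 CPM with 3R and at 65.1, 51.4, 51.9, 50.7, 71.0, 86.0, 36.3 and 56.7 CPM with Y518R in MOLM13, THP1, RS4-11, KOPN8, K562, RAJI, JURKAT and P493-6. The level was higher with Y518R in 7 of 8 lines, JURKAT being the exception, and the ranges of the peptides overlapped. The change was 0.16 ± 0.057 (SE) on the log2 scale, with an edgeR adjusted p of 0.999. VARS, the cytosolic valyl enzyme, was at 157, 295 and 674 CPM (lowest, median and highest) with 3R and at 155, 330 and 758 CPM with Y518R, a change of 0.15 ± 0.071 with 6 of 8 lines higher, and of 0.082 without MOLM13. PARS2 was at 5.23, 8.49 and 13.8 CPM with 3R and at 6.66, 9.94 and 15.9 CPM with Y518R, a change of 0.22 ± 0.11 with 7 of 8 lines higher. The peptides' ranges overlapped in both genes, and neither passed (edgeR adjusted p = 0.999).

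VARS2 and LARS2 followed, at 0.12 ± 0.062 and 0.11 ± 0.061 (LARS2 0.070 without RAJI). On the other side the changes were smaller: HARS2, the mitochondrial histidyl enzyme, was at −0.036 ± 0.063, GARS, the glycyl enzyme, at −0.033 ± 0.10, RARS, the cytosolic arginyl enzyme, at −0.022 ± 0.057, DARS, the aspartyl enzyme, at −0.019 ± 0.055, and RARS2 at −0.018 ± 0.064. The near-zero GARS change averaged lines that differed: its log2 ratio was −0.81 in THP1 and −0.35 in MOLM13 but 0.33 in RAJI, and without THP1 the fitted change was 0.075. No member was higher in all 8 lines and none was lower in all 8, beside 0.161% and 0.245% of all genes.

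**Figure D3:**
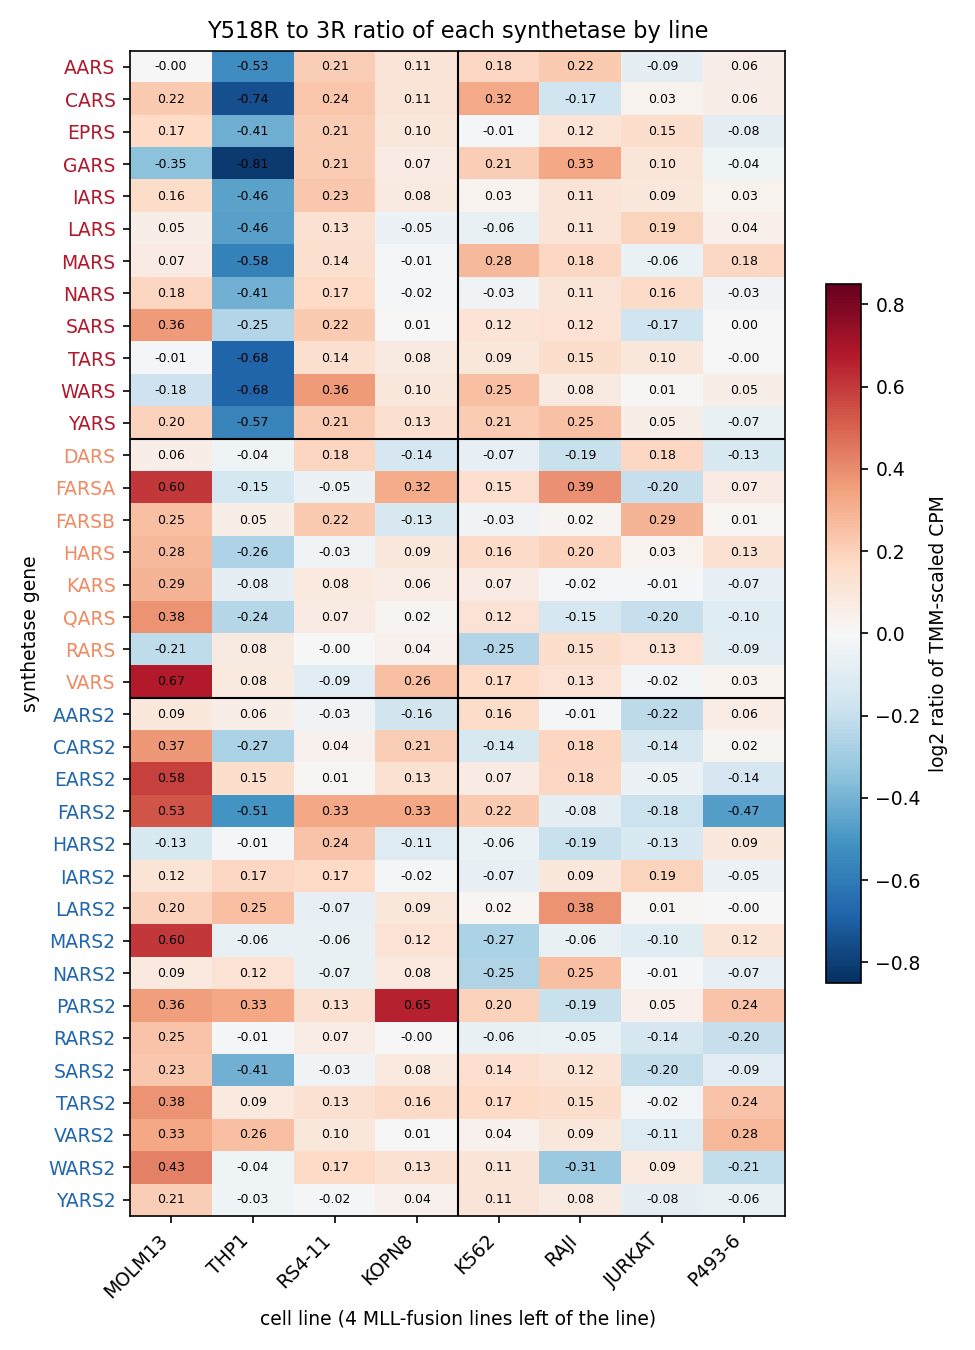
Log2 ratio of Y518R to 3R (TMM-scaled CPM, prior count 2) of each of the 36 synthetases (rows) in each line (columns), red for higher and blue for lower with Y518R; gene names are dark red for ATF4-responsive cytosolic, orange for other cytosolic and blue for mitochondrial genes. The 12 uppermost genes are all blue in THP1 (−0.81 to −0.25) and all red in RS4-11 (0.13 to 0.36), and nearly all mitochondrial genes are red in MOLM13.

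In the 4 MLL-fusion lines the mitochondrial genes leaned upward with Y518R, as did the 8 other cytosolic genes. The 12 ATF4-responsive genes did not. The median change was 0.11 over the mitochondrial genes, 13 of 16 above 0. It was 0.072 over the other cytosolic genes, 7 of 8 above 0, and −0.046 over the ATF4-responsive genes, 3 of 12 above 0. Over all cytosolic genes it was −0.0018, 10 of 20 above 0, beside −0.00041 over all genes tested. Without MOLM13 the mitochondrial median was 0.055 and that of the other cytosolic genes 0.032. edgeR called 0 members and 0 genes (0.0%), and 3 members had an unadjusted p under 0.05, all higher, beside 5.84% of all genes (2.97% higher and 2.87% lower): PARS2 (0.37 ± 0.16), VARS (0.23 ± 0.10) and TARS2 (0.19 ± 0.085), each with an edgeR adjusted p of 0.840. DESeq2 and limma-voom also called 0 members, with 3 at an unadjusted p under 0.05 in each, and without THP1 edgeR called 0 with 9. The share of all genes at that p was not computed for these alternative runs, so the 9 have no background. The VARS change was 0.086 without MOLM13. EARS2, PARS2, TARS2 and VARS2 were higher in all 4 of these lines, beside 6.58% of all genes, and no member was lower in all 4, beside 7.01%. On the lower side the first was GARS at −0.22 ± 0.13 (edgeR adjusted p = 0.857), which was −0.028 without THP1 and −0.37 without RS4-11. Values for TARS, LARS, MARS and WARS were −0.12, −0.083, −0.092 and −0.099, and each was above 0 without THP1. Leaving out THP1 moved the median of the 12 ATF4-responsive genes from −0.046 to 0.10 and that of all cytosolic genes to 0.11, so the sign of both rests on that line.

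In the 4 other lines the cytosolic genes leaned upward and the mitochondrial genes did not. The median was 0.073 over the cytosolic genes, 16 of 20 above 0, and −0.0063 over the mitochondrial genes, 7 of 16 above 0, beside −0.0049 over all genes tested. All 12 ATF4-responsive genes had a fitted change above 0, between 0.018 and 0.15, and 4 of the 8 other cytosolic genes did. edgeR called 0 members and 0 genes (0.0%), with 0 members at an unadjusted p under 0.05, beside 1.55% of all genes (0.399% higher and 1.15% lower), and DESeq2 and limma-voom gave 0 for both. HARS, the cytosolic histidyl enzyme, was at 116, 99.0, 107 and 93.1 CPM with 3R in K562, RAJI, JURKAT and P493-6 and at 130, 113, 109 and 102 CPM with Y518R. HARS was higher with Y518R in each of the 4 lines, and so were IARS, the cytosolic isoleucyl enzyme, and WARS, beside 3.93% of all genes. RARS2, the mitochondrial arginyl enzyme, was lower in each, beside 5.08%.

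The peptide change was then compared between the classes in a single fit. No member passed the test: edgeR called 0 of 36 members and 0 genes (0.0%), with 0 members at an unadjusted p under 0.05, beside 3.79% of all genes (2.06% higher and 1.73% lower). DESeq2 gave 0 for both as well, and limma-voom called 0 with 1 at an unadjusted p under 0.05. The difference, MLL-fusion minus other lines, had a median of −0.13 over the ATF4-responsive genes, with 1 of 12 above 0. The median was 0.083 over the mitochondrial genes, with 14 of 16 above 0. Over the 8 other cytosolic genes it was 0.073, with 6 of 8 above 0, beside 0.0098 over all genes. Without THP1 the ATF4-responsive median was 0.030 and without RAJI the mitochondrial median was 0.14. Without MOLM13 the median of the other cytosolic genes was 0.016. GARS had the largest negative difference, −0.37 ± 0.18 (edgeR adjusted p = 0.999), and it was −0.18 without THP1.

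THP1 had the lowest median ratio of the cytosolic synthetases, and all 12 ATF4-responsive genes were lower with Y518R. GARS was at 403 CPM with 3R and 229.6 CPM with Y518R, 1.76-fold lower (exact 95% interval of the Y518R to 3R ratio, counting error only, 0.553 to 0.586). CARS, the cysteinyl enzyme, was at 158 and 94.0 CPM, 1.68-fold lower. TARS, the cytosolic threonyl enzyme, was at 377 and 235 CPM, and WARS at 269 and 168 CPM, 1.61-fold and 1.60-fold lower. These 4 were the members at least 1.5-fold lower, beside 3.5% of genes at 10 CPM or more, and no member was 1.5-fold higher, beside 5.23%. There is 1 library per peptide, so these differences have no replicate check and compare the libraries.

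The other 8 ATF4-responsive genes had log2 ratios between −0.58 (MARS, the methionyl enzyme) and −0.25 (SARS, the seryl enzyme). The counting interval of all 12 lay below a ratio of 1, beside 35.3% of genes at 10 CPM or more. That share takes in genes with far fewer reads and so wider intervals, and is not a background of like counts. The 8 other cytosolic genes ran from −0.26 (HARS) to 0.081 (VARS), with 3 of them above 0. Their median was −0.062, against −0.55 for the ATF4-responsive genes, −0.0043 for all genes at 10 CPM or more and 0.022 for the mitochondrial genes, 8 of 16 above 0. Among the mitochondrial genes FARS2, the phenylalanyl enzyme, was lowest at −0.51 (12.4 and 8.67 CPM), SARS2 was at −0.41 and PARS2 was highest at 0.33. Presence of TGATGNAA in the window did not divide the ATF4-responsive genes here: the 6 with the letters had a median of −0.55, from −0.74 to −0.41, and the 4 with a window but no match had a median of −0.55, from −0.81 to −0.25.

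**Figure D4:**
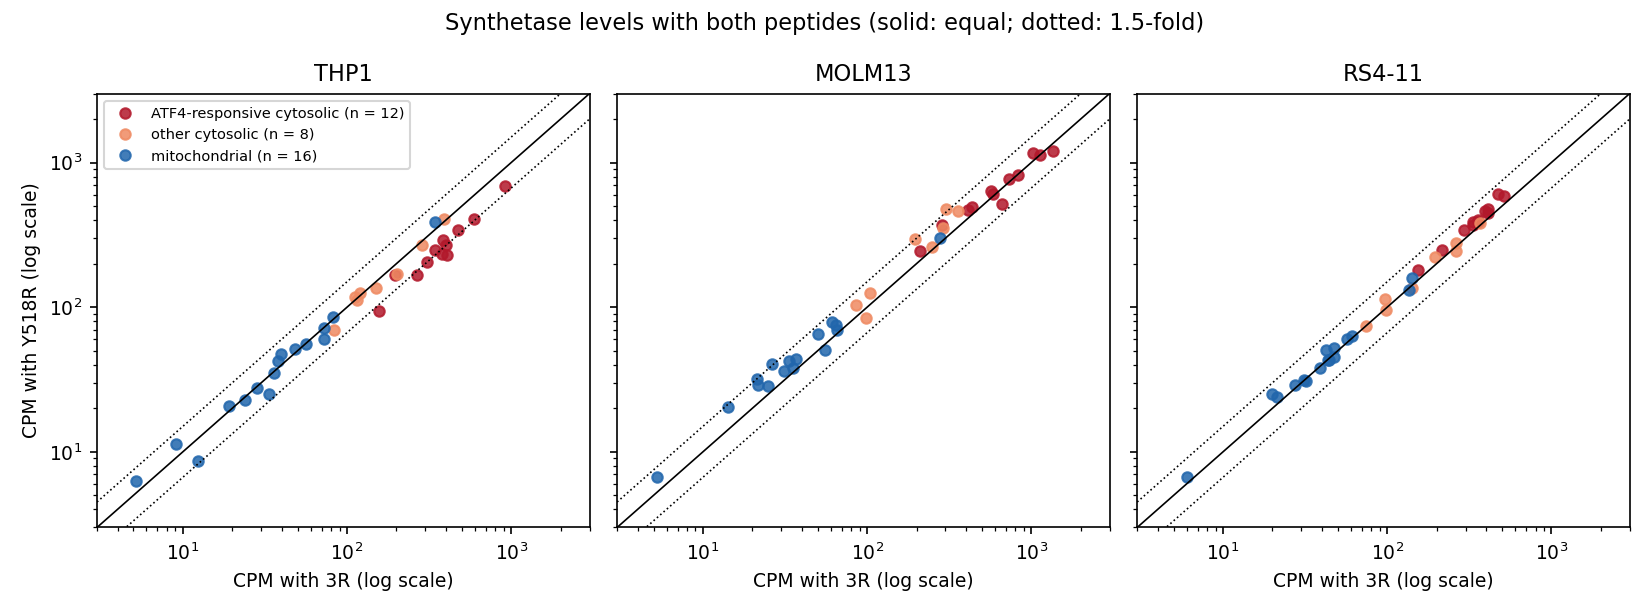
Level of every synthetase with 3R (x axis) against Y518R (y axis), TMM-scaled CPM on log axes, in THP1, MOLM13 and RS4-11; the solid line marks equal levels and dotted lines 1.5-fold. In THP1 the ATF4-responsive genes (dark red) lie below the solid line with GARS, CARS, TARS and WARS beyond 1.5-fold, in RS4-11 they lie just above it, and in MOLM13 VARS, FARSA and MARS2 lie beyond 1.5-fold above.

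Listed targets of ATF4 outside the synthetases were lower in THP1 as well. ATF4 mRNA was at 1239 CPM with 3R and 611 CPM with Y518R, 2.03-fold lower, the lowest ratio of the 8 amino acid and stress sensors listed, whose median was −0.027 with 3 above 0. In the same list EIF2AK2, an eIF2alpha kinase, was 2.12-fold higher, at 106 CPM with Y518R. All 20 listed ATF4 targets outside the synthetases had a ratio below 1, with a median of −0.85 on the log2 scale, and of the 18 at 10 CPM or more 15 were at least 1.5-fold lower, beside 3.5% of all genes. All 6 cytosolic elongation factors listed were below 0 too, with a median of −0.32. SLC7A11, the cystine transporter subunit, was at 128 and 30.9 CPM (4.14-fold lower), CHAC1, which degrades glutathione, at 68.6 and 17.4 CPM (3.94-fold lower), and ASNS, the asparagine synthetase, at 78.3 and 42.5 CPM (1.84-fold lower). XPOT, the exportin that carries tRNA out of the nucleus, was at 371 and 209 CPM (1.77-fold lower). LYZ was at 771 CPM with 3R and 532 CPM with Y518R. The part of any of these in the synthetase values was not tested.

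RS4-11 showed the opposite arrangement at a smaller size. All 12 ATF4-responsive genes were higher with Y518R, with log2 ratios from 0.13 (LARS, the leucyl enzyme) to 0.36 (WARS, 473 and 607 CPM). The counting interval of each lay above a ratio of 1, beside 26.0% of genes at 10 CPM or more, many of which had far fewer reads and so wider intervals. The median of the 12 was 0.21, against 0.032 for the 8 other cytosolic genes, 0.051 for the mitochondrial genes and 0.0030 for all genes at 10 CPM or more. No member reached 1.5-fold, beside 0.15% of genes higher and 0.0642% lower. The 20 ATF4 targets had a median of 0.25 with 19 above 0, the exception being ASNS (−0.16). The highest ratio among them was that of DDIT3, the stress transcription factor, at 32.5 and 46.2 CPM. The MARS gene overlaps DDIT3 exons on the opposite strand over 2.13% of its exon bases. ATF4 itself was at 906 and 1012 CPM.

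In MOLM13 the higher genes were of another kind. VARS was at 302 CPM with 3R and 480.5 CPM with Y518R (1.59-fold higher), FARSA, a subunit of the phenylalanyl enzyme, at 195 and 296 CPM (1.51-fold higher) and MARS2 at 26.5 and 40.3 CPM (1.52-fold higher). These 3 were the members past 1.5-fold, beside 4.0% of genes higher. Of the mitochondrial genes 15 of 16 were above 0, with a median of 0.29, and EARS2 was at 0.58 and FARS2 at 0.53. The 8 other cytosolic genes had a median of 0.28 and the 12 ATF4-responsive genes 0.11, with GARS at 663 and 520.4 CPM (−0.35) and WARS at 1355 and 1198 CPM (−0.18). The 20 ATF4 targets had a median of −0.26 with 3 above 0, while ATF4 mRNA was at 1139.9 and 1132 CPM. Among the scaffold proteins of the multisynthetase complex AIMP2 was at 26.7 and 52.4 CPM, 1.96-fold higher, while AIMP1 was at 0.098 and EEF1E1 at −0.17 on the log2 scale. All 6 cytosolic elongation factors listed were above 0, with EEF2 highest at 0.74, as were all 6 in KOPN8 (median 0.24).

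The other 5 lines held 1 further member past 1.5-fold. PARS2 in KOPN8 was at 6.89 and 10.9 CPM (169 and 337 counts), 1.58-fold higher with an interval of 1.31 to 1.91, beside 0.305% of genes higher and 0.436% lower in that line. No member passed it in the 4 remaining lines, whose backgrounds were 0.51% higher and 0.144% lower in K562, 0.64% and 4.28% in RAJI, 0.0854% and 0.203% in JURKAT, and 0.194% and 0.0968% in P493-6. In K562 the highest ratio was that of CARS (115 and 144 CPM, 0.32) and the lowest that of MARS2 (32.6 and 27.0 CPM, −0.27). In RAJI, whose 3R library stands apart, FARSA was at 173 and 226 CPM (0.39), LARS2 at 89.8 and 117 CPM (0.38) and WARS2 at 36.2 and 29.2 CPM (−0.31). JURKAT ran from AARS2 (75.4 and 64.7 CPM, −0.22) to FARSB (109.8 and 134 CPM, 0.29). In P493-6 VARS2 was at 87.5 and 106 CPM (0.28), the highest ratio, and WARS2 had the lowest among members at 10 CPM or more (−0.21). These single-line values compare pairs of libraries.

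**Figure D5:**
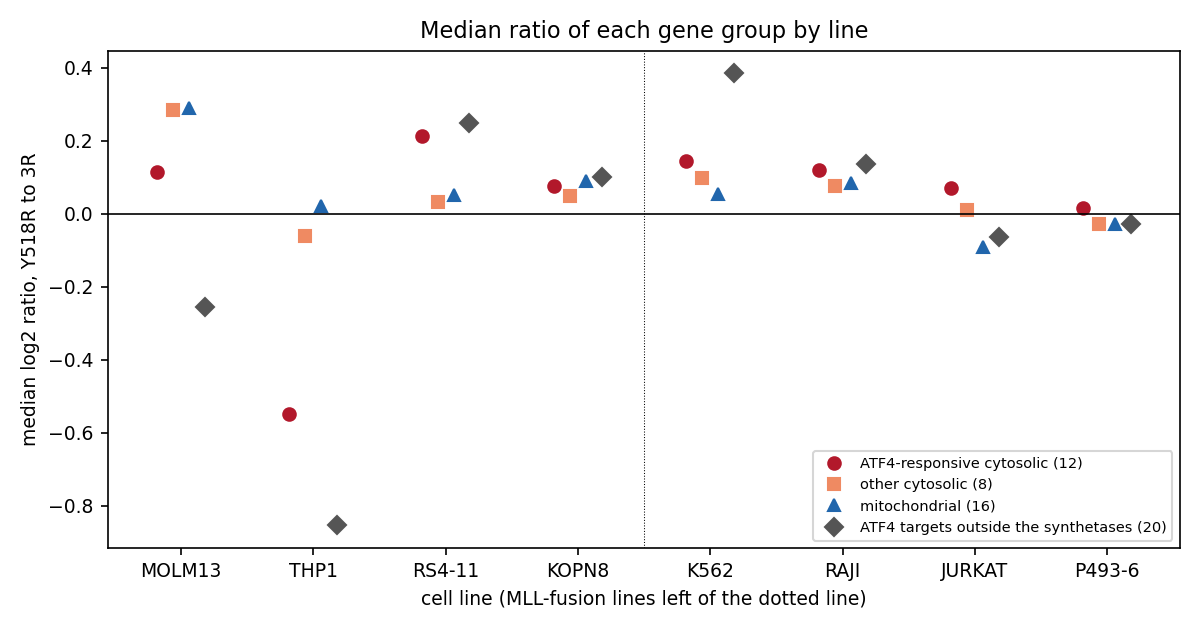
Median log2 ratio of Y518R to 3R in each line for the 12 ATF4-responsive cytosolic synthetases, the 8 other cytosolic synthetases, the 16 mitochondrial synthetases and the 20 ATF4 targets outside the synthetases; lines left of the dotted line carry an MLL fusion. THP1 had the lowest medians of the ATF4-responsive genes (−0.55) and of the ATF4 targets (−0.85), and the ATF4-responsive median was above 0 in the other 7 lines.

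In single lines, the median of the 12 ATF4-responsive genes was 0.11 in MOLM13, −0.55 in THP1, 0.21 in RS4-11, 0.076 in KOPN8, 0.15 in K562, 0.12 in RAJI, 0.070 in JURKAT and 0.016 in P493-6. The median of the 20 ATF4 targets outside the synthetases was −0.26, −0.85, 0.25, 0.10, 0.38, 0.14, −0.064 and −0.027 in the same order. The pair of medians had the same sign in 5 of 8 lines, and MOLM13, JURKAT and P493-6 had a synthetase median above 0 with a target median below 0. The cytosolic median exceeded the mitochondrial median in 5 of 8 lines, with a mean difference of −0.021 ± 0.18 (SD over 8 lines). In THP1 this difference was −0.43.

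Related genes around the synthetases did not pass the test in any peptide comparison either. Over all 8 lines, 9 of 14 genes of tRNA maturation, 10 of 17 mitochondrial translation factors and 3 of 6 cytosolic elongation factors were above 0, and edgeR called 0 of each, with 0, 2 and 0 at an unadjusted p under 0.05. In the MLL-fusion lines all 20 ATF4 targets had a fitted change below 0 with a median of −0.14, and 5 had an unadjusted p under 0.05, beside 2.87% of all genes lower: SLC7A11 (−0.81 ± 0.27), CTH, which makes cysteine (−0.46 ± 0.18), ASNS (−0.30 ± 0.12), STC2 and CHAC1, each with an edgeR adjusted p of 0.840. Fitted values of the list average THP1 and MOLM13, where the target medians were below 0, with RS4-11 and KOPN8, where they were above. Single targets could depart from these medians: ASNS was lower in all 4 lines, and SLC7A11 was the lowest of the list in KOPN8 (−0.75). In the 4 other lines 17 of the 20 were above 0, with a median of 0.14.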

How the data were processed

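Counts of reads per gene were deposited for 16 libraries as whole numbers, with no normalization visible in the values. The submitters' processing notes list TopHat2 2.1.1, HTSeq 0.6.1, DESeq, DESeq2 3.0 and also CASAVA 1.8.4, with no order or role. Those notes list hg19 and GRCh38 both, and no source used here states the strand setting, so reads of overlapping genes may be split or lost. The 5 entries per library that name no gene were left out of library sizes (shares in the report).

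The members and all gene lists were chosen with earlier results of these data known, so lists are described by counts and medians and get no test. A further gene list is not reported here. Groups came from the labels, and the cell line, which received both peptides, was the block. No line's pair of libraries was a duplicate: chi-square per degree of freedom between them was 8.66 to 65.5. Tests on the counts used edgeR 4.0.16 (R 4.3.3): TMM, filterByExpr at a minimum count of 10, the quasi-likelihood test, Benjamini-Hochberg over all genes tested, calls at 0.05. All lines together had a single peptide term. A second model gave every class its own peptide term. SEs come from each log2 change over the root of its F value. For single lines, log2 ratios of scaled CPM had 2 added as prior count, with a 1.5-fold threshold and exact 95% intervals of count ratios. These intervals cover counting error only, since there is 1 library per line and peptide. A read carrying no molecular identifier cannot be counted as a separate molecule, so the intervals may be too narrow. A count of 0 allows up to 3 counts, 0.0698 to 0.155 CPM.

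Members are named by lowest p, 5 in each direction and comparison, and in single lines among the 5 largest ratios at 10 CPM or more; genes of other lists named in single lines were chosen after their values were seen. Exon lengths and overlaps came from GENCODE v29 basic transcripts. The tests were tried on simulated counts. Alternatives were RLE scaling, no filter, DESeq2 1.42.0, limma-voom 3.58.1, no replicate block, and leaving out lines. Shares of all genes at an unadjusted p under 0.05 were computed for the main edgeR fits only.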

Additional observations from a re-analysis of the deposited data

Results flagged for a closer look

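In 119 groups of 8 values (each member's log2 ratio and its level with either peptide over the 8 lines, and the medians of the gene groups), the highest or lowest line lay far from the nearest other line by Dixon's criterion in 27. Chance flags about 1 in 20 groups of normally distributed values. Levels were compared as CPM without a log scale, where high values lie further apart, so that rate need not hold for them. The groups share lines, so the flags are not independent. THP1 accounted for 12, MOLM13 for 9, P493-6 for 4 and K562 for 2.

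THP1 had the isolated low log2 ratio for AARS (−0.53), CARS (−0.74), EPRS (−0.41), IARS (−0.46), LARS (−0.46), MARS (−0.58), NARS (−0.41), TARS (−0.68) and YARS (−0.57), all of them ATF4-responsive cytosolic genes. The same line stood apart in the median of the cytosolic genes (−0.41), the median of the ATF4-responsive genes (−0.55) and the cytosolic minus mitochondrial difference (−0.43). The nearest other line was at 0.0095 for the cytosolic median. ATF4 mRNA was 2.03-fold lower in the same pair of libraries, and its part in these ratios was not tested.

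MOLM13 had the isolated high log2 ratio for KARS (0.29), VARS (0.67), EARS2 (0.58), MARS2 (0.60) and the median of the other cytosolic genes (0.28). Its levels stood apart for AARS with 3R (1137 CPM) and with Y518R (1134 CPM), for EPRS with Y518R (1157 CPM) and for MARS with 3R (731 CPM). P493-6 stood apart in the level of IARS with 3R (1516 CPM) and Y518R (1546 CPM) and of MARS2 with 3R (127 CPM) and Y518R (138 CPM). K562 stood apart in the 3R levels of RARS (219.6 CPM, 119 CPM in the next line) and VARS (674 CPM).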

How the results depend on the processing

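Each peptide comparison called 0 members in every alternative run (RLE scaling, no expression filter, DESeq2, limma-voom, no replicate block, each line left out in turn, and RAJI and THP1 left out together). Without the replicate block, so unpaired, the TARS2 change over all lines was 0.17, and no call changed. Among all genes in the MLL-fusion lines, 0 were called by edgeR, 40 higher and 12 lower without the filter, and 18 higher and 2 lower by limma-voom. The class comparison at 3R gave 0 members in all alternatives except DESeq2, which called 1, EARS2 (−1.11, adjusted p = 0.0290); the cause was not tested. Without RAJI and THP1, changes of uncalled members switched sign to 0.011 for DARS and 0.033 for GARS over all lines, to 0.067 for TARS, 0.041 for LARS, 0.065 for MARS and 0.091 for WARS in the MLL-fusion lines, and to 0.0045 for the TARS difference. With each line left out in turn, changes over all lines ranged from −0.046 to 0.015 for RARS, −0.085 to 0.075 for GARS, −0.048 to 0.0050 for DARS and −0.052 to 0.0052 for RARS2. In the MLL-fusion lines they ranged from −0.20 to 0.064 for TARS, −0.15 to 0.038 for LARS, −0.17 to 0.062 for MARS and −0.25 to 0.089 for WARS, each positive only without THP1. At 3R the class difference ranged from −0.059 to 0.57 for MARS and −0.032 to 0.63 for RARS2, negative only without MOLM13 and only without THP1, respectively. The ATF4-responsive median in the MLL-fusion lines ranged from −0.14 without RS4-11 to 0.10 without THP1. The 1 library per line and peptide limits every single-line value.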

Other observations

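The 8 synthetases of the multisynthetase complex (EPRS, IARS, LARS, QARS, MARS, KARS, RARS and DARS) did not share a direction: 4 of 8 were above 0 over all lines, with a median change of 0.0097, and 5 of 8 in the MLL-fusion lines, with a median of 0.0082. In THP1 they split by list: EPRS, IARS, LARS and MARS had log2 ratios of −0.41, −0.46, −0.46 and −0.58, while QARS was at −0.24, KARS at −0.084, DARS at −0.040 and RARS at 0.078. The scaffold proteins AIMP1, AIMP2 and EEF1E1 were at 0.020, −0.0072 and −0.098 in the same pair of libraries. Within the phenylalanyl enzyme, whose subunits come from FARSA and FARSB, the ratios in MOLM13 were 0.60 and 0.25, and in JURKAT −0.20 and 0.29.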
